A study of Mus musculus with 8 samples.

Results

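Long genes are those in which transcription has to travel farthest, and the gene bodies of 200 kb or more were examined here for H3K36me3, trimethylation of lysine 36 of histone H3. The body of a protein-coding gene was the span of its longest protein-coding transcript (GENCODE M21, mm10), and one of 200000 bases or more on chromosomes 1 to 19 qualified. This length rule used no measured value. It gave 924 genes of 20722. The ChIP–seq libraries came from i4F MEFs, mouse embryonic fibroblasts of an E13.5 embryo (Clone 1) that carry a doxycycline-inducible cassette of OCT4, SOX2, KLF4 and MYC (OSKM). All cells were kept for 72 h in iPS cell medium. They received nothing else (MEF), 2 µM vitamin B12 (MEF B12), doxycycline at the labelled 1 µg/ml (OSKM), or doxycycline and 2 µM vitamin B12 (OSKM B12). Doxycycline was given only together with factor induction, and the effects of the drug and of the factors cannot be told apart. The 4 conditions came from 1 embryo, each with a single H3K36me3 library and a single input library. No difference below therefore has a replicate check, no p-value is given, and the 95% intervals cover counting error only.

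H3K36me3 is placed by SETD2, a methyltransferase that travels with elongating RNA polymerase II. The mark is usually low at the promoter, grows with distance into a transcribed gene and is rich over exons. In long genes, which often consist of a few large introns at the 5′ end and many exons toward the 3′ end, it is therefore possible to see where in the body the mark begins. In fibroblasts, many such genes encode matrix proteins, giant cytoskeletal linkers and chromatin regulators, and other long genes belong to neurons.

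The depth was 29046913 to 33399267 H3K36me3 tags per library. The peak lists held similar numbers of peaks on chromosomes 1 to 19, between 64364 and 67234, but covered 91.8 Mb in OSKM and 150.5 to 162.6 Mb in the other libraries. Of 12 fibroblast markers, 11 had 10% or more of the body in peaks in every library, whereas 0 of 6 epithelial, 0 of 6 pluripotency and 0 of 5 neural markers did. Of 5 immune markers, Cd68, Csf1r and Cd74 reached 10% in MEF, MEF B12 and OSKM B12, and 2 of them did in OSKM. Of 4 endothelial markers, only Tek reached it, in OSKM B12. The median covered share of the immune markers was 14.96% in MEF and 24.0% in MEF B12, against 3.56% in OSKM and 23.5% in OSKM B12, so it was lowest in OSKM like the long genes. The part of such cells in the results was not tested. In chromatin from many cells, fewer cells with the mark and less mark per cell cannot be told apart.

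The 5′ front, the first base of a gene body that lies in a peak, is shown first for 3 genes in which it lay in different places. Mycbp2 (chr14:103113411-103346800, 85 exons) encodes an E3 ubiquitin ligase that binds MYC, Macf1 (chr4:123349633-123684360, 98 exons) a linker of microtubules and actin, and Rgl1 (chr1:152516760-152766305, 19 exons) an exchange factor for Ral GTPases. The lines give 60 bases on either side of the front, read 5′ to 3′ on the sense strand of GRCm38 (mm10), with the bases inside the peak in capitals.
Mycbp2 front in MEF (chr14:103323121-103323240, minus strand): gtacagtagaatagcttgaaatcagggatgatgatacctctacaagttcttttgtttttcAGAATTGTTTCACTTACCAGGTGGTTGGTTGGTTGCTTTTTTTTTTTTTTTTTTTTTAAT
Mycbp2 front in OSKM (chr14:103319470-103319589, minus strand): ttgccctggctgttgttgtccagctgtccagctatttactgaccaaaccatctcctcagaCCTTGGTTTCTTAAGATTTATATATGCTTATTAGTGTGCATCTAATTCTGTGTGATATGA
Macf1 front in MEF (chr4:123682964-123683083, minus strand): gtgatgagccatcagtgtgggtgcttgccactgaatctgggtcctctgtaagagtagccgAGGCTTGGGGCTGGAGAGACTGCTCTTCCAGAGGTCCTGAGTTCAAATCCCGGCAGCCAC
Macf1 front in OSKM (chr4:123526686-123526805, minus strand): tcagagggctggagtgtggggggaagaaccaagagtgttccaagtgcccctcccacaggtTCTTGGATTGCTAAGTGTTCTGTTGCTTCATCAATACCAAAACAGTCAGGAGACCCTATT
Rgl1 front in MEF (chr1:152621676-152621795, minus strand): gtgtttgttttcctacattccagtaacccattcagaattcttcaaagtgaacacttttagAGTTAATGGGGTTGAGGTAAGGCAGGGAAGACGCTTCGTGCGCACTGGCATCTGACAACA
Rgl1 front in OSKM (chr1:152615616-152615735, minus strand): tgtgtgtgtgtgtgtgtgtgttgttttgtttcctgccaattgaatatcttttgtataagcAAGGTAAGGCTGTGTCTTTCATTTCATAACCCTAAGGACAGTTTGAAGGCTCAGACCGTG

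All 6 fronts lay in introns. In Mycbp2 the front lay in intron 2 in both libraries, 23.6 kb from the transcription start site (TSS) in MEF and 27.3 kb in OSKM. In Macf1 it lay 1.34 kb from the TSS in MEF, in intron 1, and 157.6 kb from it in OSKM, in intron 5. The MEF front of Macf1 was a single peak that ended at 1.79 kb, the next MEF peak began at 135.1 kb, and dense peaks began at 171.2 kb in MEF and 170.8 kb in OSKM. In Rgl1 the front lay in intron 3 in both, at 144.6 and 150.6 kb. By the median front over the libraries, as a share of the body, Macf1 had the most 5′ front and Rgl1 the least. This was among the marked genes with 20% or more of the body in peaks in MEF and less than 50% of those peak bases in other genes.

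Rgl1 and Runx1, the latter encoding a Runt-domain transcription factor known for its distal and proximal promoters, each had a RefSeq start deep in the body, so the sequences of the outer and inner starts are shown (250 bases before to 50 after the start, sense strand, GRCm38.p6, CG dinucleotides in capitals).
Rgl1 outer start (chr1:152766256-152766555, minus strand): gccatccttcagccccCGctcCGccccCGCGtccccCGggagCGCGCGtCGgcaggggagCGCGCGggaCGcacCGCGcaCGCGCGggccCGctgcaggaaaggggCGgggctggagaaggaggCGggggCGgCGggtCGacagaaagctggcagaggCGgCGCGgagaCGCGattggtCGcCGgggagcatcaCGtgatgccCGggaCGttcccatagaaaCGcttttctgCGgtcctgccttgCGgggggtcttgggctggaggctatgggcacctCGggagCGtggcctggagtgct
Rgl1 inner start (chr1:152625168-152625467, minus strand): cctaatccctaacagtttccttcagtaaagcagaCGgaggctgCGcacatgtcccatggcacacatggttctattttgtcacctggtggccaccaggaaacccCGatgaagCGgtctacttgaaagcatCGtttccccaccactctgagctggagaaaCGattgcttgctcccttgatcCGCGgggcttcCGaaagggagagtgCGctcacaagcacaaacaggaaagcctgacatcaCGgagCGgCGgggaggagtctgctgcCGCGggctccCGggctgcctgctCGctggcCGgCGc
Runx1 outer start (chr16:92826025-92826324, minus strand): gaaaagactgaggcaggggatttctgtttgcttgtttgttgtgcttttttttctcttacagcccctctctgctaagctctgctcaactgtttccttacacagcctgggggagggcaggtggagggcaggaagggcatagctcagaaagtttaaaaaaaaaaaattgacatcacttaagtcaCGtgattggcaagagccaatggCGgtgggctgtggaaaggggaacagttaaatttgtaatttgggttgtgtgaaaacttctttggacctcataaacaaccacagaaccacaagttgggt
Runx1 inner start (chr16:92697280-92697579, minus strand): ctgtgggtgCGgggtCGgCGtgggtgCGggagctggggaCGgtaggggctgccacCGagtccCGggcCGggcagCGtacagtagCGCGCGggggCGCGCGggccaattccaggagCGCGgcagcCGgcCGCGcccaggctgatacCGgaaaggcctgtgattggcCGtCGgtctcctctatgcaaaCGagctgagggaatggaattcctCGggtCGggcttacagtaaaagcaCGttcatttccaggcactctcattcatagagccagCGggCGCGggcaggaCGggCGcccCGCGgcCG

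The outer start of Rgl1 held 39 CG dinucleotides and the inner one, 141.1 kb downstream, held 19. The outer start of Runx1 held 2 and the inner one, 128.8 kb downstream, held 35. Over all 32851 RefSeq promoter windows of 300 bases the median was 7 (quartiles 3 and 20), and 94.6% held at least 1 CG. In Rgl1 the mark began 3.48 kb past the inner start in MEF and 3.74 kb in MEF B12, against 9.54 kb in OSKM and 2.67 kb in OSKM B12, and no library had a peak before it. In Runx1 (chr16:92601466-92826149) the front lay at 134.6 kb in MEF and 135.5 kb in OSKM. The nearest annotated inner start before it was at 130.7 kb, not the one shown at 128.8 kb. The front lay 4.00 kb past that nearest start in MEF and 4.88 kb past it in OSKM. MEF B12 and OSKM B12 in addition had peaks at 5.75 and 5.13 kb from the outer start. Whether any of these starts was used in these cells was not measured here.

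**Figure D1:**
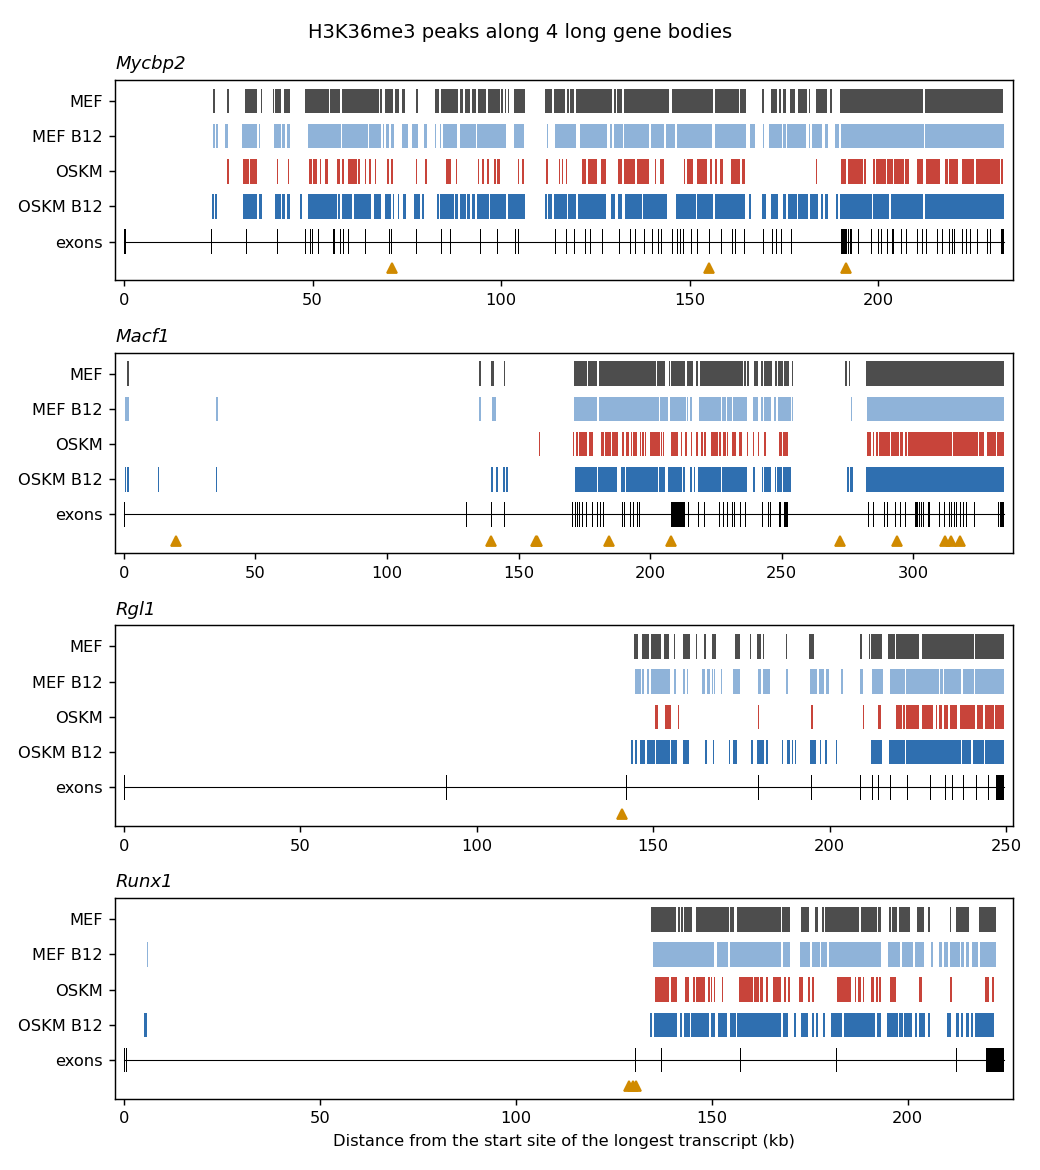
H3K36me3 peaks (bars, 1 row per library) along Mycbp2, Macf1, Rgl1 and Runx1 against the distance in kb from the start site of the longest transcript. Black boxes are exons and triangles annotated inner starts; in Rgl1 every peak lies past the inner start at 141.1 kb, and in Macf1 the OSKM row begins at 157.6 kb.

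Most long gene bodies carried little or no mark. A peak touched 596 of the 924 genes (64.5%) in at least 1 library, and 403 in all 4. By library, 493 were touched in MEF and 487 in MEF B12, against 468 in OSKM and 498 in OSKM B12. A gene was called marked when 10% or more of its body lay in peaks in at least 1 library. This held for 153 long genes (16.6%), against 42.8% of 1352 genes of 100 to 200 kb, 57.0% of 2345 of 50 to 100 kb and 59.6% of 4794 of 20 to 50 kb. Under 20 kb it was 41.5% of 11307, so the share did not fall steadily with length. The call is a percent of the body, so the same number of covered bases gives a lower value in a longer gene. All 153 had peaks in every library. In their own library, 131 reached 10% in MEF and 144 in MEF B12, against 55 in OSKM and 143 in OSKM B12. Most were therefore marked only through the libraries other than OSKM, and this choice alone favours a lower share in OSKM. Another 443 were touched but not marked, and 328 had no enrichment that was detectable at this depth.

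The marked genes were built differently from those without a peak. Their median length was 249.3 kb, against 376.1 kb, and they had a median of 8.74 exons per 100 kb against 3.49. Intron 1 had a median of 30.5 kb in the marked genes and 70.4 kb in those without a peak. GC content was 43.6% against 40.1%, and the repeat share was 22.5% against 28.5%. Marked genes therefore had denser exons, a shorter intron 1, more GC and fewer repeats. The part of read placement in repeats in this difference was not tested. By chromosome, the marked share ran from 9.52% of 42 long genes on chromosome 13 to 28.3% of 46 on chromosome 11.

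At the length bound, the values did not follow length. Just inside, Plcxd3, with a body of 200.1 kb, had no peak, and Pcbp3, an RNA-binding protein gene of 200028 bases, had 1 or 2 peaks over 0.216% to 0.568% of its body. Just outside, Morc1 (199.7 kb) had no peak, whereas Atp9b, a P4-type ATPase gene of 199.8 kb, was covered over 29.5% in MEF and 35.9% in MEF B12, against 16.6% in OSKM and 35.7% in OSKM B12.

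By role, the marked share was higher in the lists for matrix, cytoskeleton and gene regulation than in those for neurons and fragile sites. Of 40 long genes for fibroblast matrix, adhesion and signalling, 37 had a peak and 13 (32.5%) were marked. Of 46 for cytoskeleton, trafficking and polarity, 44 had a peak and 15 (32.6%) were marked, and of 54 for transcription, RNA and chromatin, 49 had a peak and 21 (38.9%) were marked. In contrast, only 3 of 111 genes for neuronal adhesion, receptors and channels were marked (2.70%), and 45 had any peak. Those 3 were Slit2 and Slit3, secreted ligands of ROBO receptors, and Tenm3, a teneurin. Of 34 genes at common fragile sites, 22 had a peak and 2 were marked, Foxp1, a forkhead factor gene, and Tenm3. Over all 924 long genes the marked share was 16.6%. The lists were drawn up by known roles, but with earlier results of these data known, and some share members such as Tenm3. The contrast between them was not tested.

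The 153 marked genes carried many short peaks separated by gaps. The median number of peaks per gene was 32 in MEF and 33 in MEF B12, against 21 in OSKM and 34 in OSKM B12. OSKM had the fewest and the other libraries were close together. The mean share of the body in peaks was 20.6% in MEF and 22.9% in MEF B12, against 10.4% in OSKM and 23.1% in OSKM B12. The median peak was 802 bases long in MEF and 812 in MEF B12, against 665 in OSKM and 801 in OSKM B12. Peaks of 10 kb or more numbered 117 in MEF and 135 in MEF B12, against 19 in OSKM and 132 in OSKM B12. The longest spanned 55.1 kb in MEF, in Macf1, and 23.7 kb in OSKM, in Gm20388. The median gap between peaks was 1376, 1336, 1591 and 1359 bases in MEF, MEF B12, OSKM and OSKM B12. Repeats made up 17.0% of the peak bases in MEF, against 24.8% of those in gaps over 1 kb. The authors' alignment restricted reads with multiple alignments, and the part of this in the repeat shares was not tested.

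The peaks of long genes were also weak ones. Of 5592 peaks on marked long genes in MEF, 8.44% had a −log10 q of 5 or more, against 37.1% of the peaks on marked genes under 20 kb. In OSKM the same shares were 1.58% and 9.11%. On marked genes of 100 to 200 kb the share was 10.35% in MEF and 1.42% in OSKM. Weak peaks were therefore not particular to the long genes. The median pileup, in extended fragments over a base, was 13.7 in MEF and 13.9 in OSKM on the long genes, with the lowest called pileup of any peak at 8 in MEF and 9 in OSKM. Most peaks in these bodies were thus nearer the calling threshold than those in short genes.

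Some of the longest bodies ran across other genes. The longest marked model, Gm20388 (chr8:119910841-124345722, 4435 kb), had 88.4% of its MEF peak bases in other protein-coding genes, and the Fgfr2 model used here (chr7:130162451-133123350, 2961 kb), of a fibroblast growth factor receptor, had 86.5%. Atp5o (chr16:91684398-91926982), a gene for an ATP synthase subunit, had 97.1%, and its front at the TSS in every library came from a body of which 97.7% is shared. Ralgps1, Asb3 and the agouti gene were the other 3 of 6 marked genes with 50% or more of their MEF peak bases in other genes. Over all marked genes, 12.3% of MEF peak bases lay in other genes, which made up 9.28% of the body bases. For these genes the signal cannot be assigned to 1 gene.

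The first question was how the marked long genes differed in reprogramming MEFs. Since the choice of marked genes bears on the direction, the counts are given for 3 sets. The covered share was lower in OSKM than in MEF in 152 of the 153 marked genes. It was lower in 476, higher in 74 and equal in 46 of all 596 genes with a peak in any library. Of the 55 genes marked in OSKM itself, a choice that favours a high share in OSKM, it was lower in 55, with a mean of 19.6% in OSKM and 33.1% in MEF. Among marked genes of 100 to 200 kb it was lower in 574 of 578. At 20 to 50 kb the count was 2818 of 2857, and under 20 kb 4106 of 4694. A lower share in OSKM was therefore general and no feature of the long genes. In the 153 genes, the mean covered share was 0.505 of the MEF value (95% counting interval, 0.486 to 0.526), and the median difference was −8.70 percentage points. The number of peaks was 0.758 of that in MEF (0.728 to 0.788), 4237 against 5592, and 114 genes had fewer peaks and 35 more. In the 55 genes the covered-share ratio was 0.594 and the peak-number ratio 1.02 (0.964 to 1.08), so the lower number of peaks was not seen there. Over the 3.90 Mb of marked long genes called in all 4 libraries, the pileup per 1000000 tags was 0.483 in OSKM and 0.622 in MEF, a ratio of 0.776 (0.771 to 0.780). Each of these bases took the mean pileup of the whole peak around it. Peaks differed in extent between libraries, so the ratio does not compare signal at the shared bases alone. A covered share lower by 1.5-fold or more, with 1 percentage point added to both sides, was found in 133 of 153 genes (86.9%), against 50.4% of all 9619 marked genes, which were chosen in the same way, and 83.7% of those of 100 to 200 kb. A share higher by 1.5-fold or more was found in 1 gene, Syne2, against 1.11%. The ratios rest on how much was called in each list. When each list was cut by rank of p to the covered length of the OSKM list, the covered-share ratio became 1.12 and the peak-number ratio 5.40, whereas the pileup ratio stayed below 1, at 0.746. With only peaks of −log10 q of 5 or more, the covered-share ratio was 0.0868 and the peak-number ratio 0.142.

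In percentage points, the largest differences were in densely covered genes, whereas the ratio of OSKM to MEF was lowest in sparsely covered ones. Mycbp2 was covered over 65.4% in MEF and 67.6% in MEF B12, against 33.4% in OSKM and 65.03% in OSKM B12. Its peaks numbered 49, 44, 65 and 54 in the same order, so that the share was lowest and the number highest in OSKM. Fbn2, which encodes the matrix protein fibrillin 2, was the most covered long gene, with 86.3% in MEF and 87.5% in MEF B12, against 57.8% in OSKM and 83.8% in OSKM B12. Its longest peak was 48.2 kb in MEF and 11.1 kb in OSKM. Vps13d, a lipid transfer protein gene, was covered over 59.3% in MEF and 63.5% in MEF B12, against 35.8% in OSKM and 63.9% in OSKM B12. In percentage points, the smallest differences were in Iqsec1, an exchange factor gene for ARF6, with 9.79% in MEF and 8.24% in OSKM, and in Dock9, an exchange factor gene for CDC42, with 11.5% and 10.3%. Only Syne2, which encodes nesprin 2 of the nuclear envelope, was higher in OSKM, with 0.960% in MEF and 4.23% in MEF B12, against 2.76% in OSKM and 11.9% in OSKM B12. It rested on 5 peaks in MEF and 12 in OSKM.

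**Figure D2:**
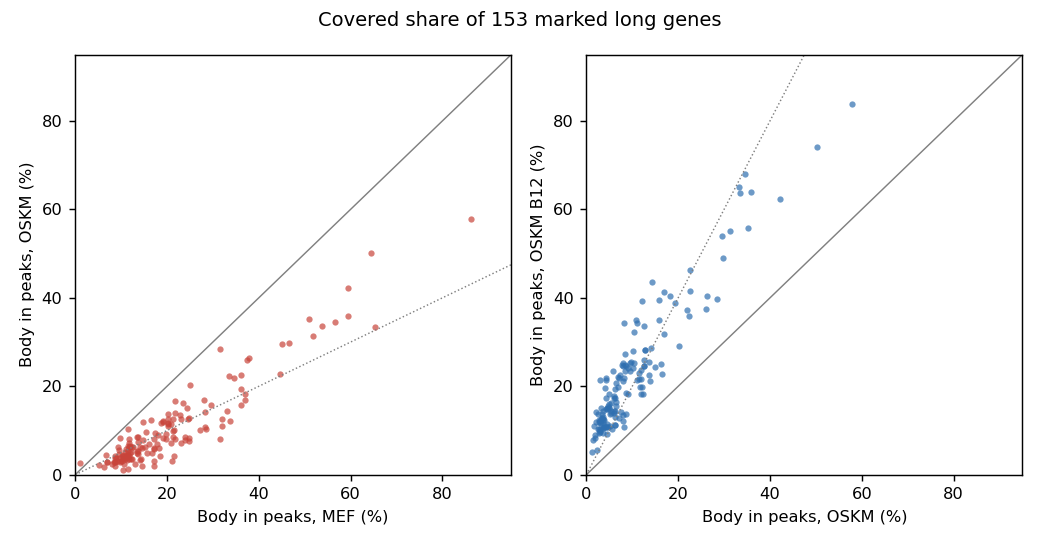
Percent of the gene body in peaks for the 153 marked long genes (1 point per gene), OSKM against MEF (left) and OSKM B12 against OSKM (right). The solid line marks equal shares and the dotted line a 2-fold difference; 152 of 153 points lie below the solid line on the left and all 153 above it on the right.

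The second question was how the mark compared during reprogramming with and without added vitamin B12. The covered share in OSKM B12 was above that in OSKM in all 153 marked genes, of which 143 were marked in OSKM B12 and 55 in OSKM. It was higher in 492, lower in 58 and equal in 46 of the 596 genes with any peak, and higher in 55 of the 55 marked in OSKM itself, with a ratio of 1.86 there. Among marked genes of 100 to 200 kb it was higher in 578 of 578. In the 153 genes, the mean share was 2.22-fold higher (2.13 to 2.31), the number of peaks 1.41-fold (1.36 to 1.47), and the pileup over shared bases 1.52-fold (1.51 to 1.53), at 0.734 against 0.483. The peak-number ratio was 1.03 (0.975 to 1.09) in the 55 genes. A share higher by 1.5-fold or more was found in 141 genes (92.2%), against 59% of all marked genes and 90.3% of those of 100 to 200 kb, and 0 genes were lower by as much, against 0.447%. Of the 152 genes that were lower in OSKM than in MEF, 130 were at or above their MEF value in OSKM B12. Both comparisons use the OSKM library, so these counts are not independent of the first ones. The OSKM B12 list also covered more in all than the MEF list, 162.6 against 150.5 Mb on chromosomes 1 to 19. In marked genes of 100 to 200 kb the mean share was likewise above MEF, at 32% against 29.56%. The count of 130 is therefore not read as a feature of the long genes. With each list cut to the OSKM covered length, the covered-share ratio became 0.872 and the peak-number ratio 0.147, and the pileup ratio 1.61. With only peaks of −log10 q of 5 or more, the covered-share ratio was 16.2 and the peak-number ratio 10.5.

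Mycbp2, Eif4g3 and Antxr1 differed most in percentage points, but not as a ratio. Eif4g3, which encodes a translation initiation factor, was covered over 56.7% in MEF and 60.2% in MEF B12, against 34.5% in OSKM and 68.0% in OSKM B12. Antxr1, a gene for a collagen-binding receptor of fibroblasts, had 53.7%, 54.1%, 33.6% and 63.8% in the same order. In both, OSKM B12 was the highest of the 4 libraries. The smallest differences in percentage points were in Iqsec1 (8.24% in OSKM and 10.7% in OSKM B12) and in a pair of matrix genes. Abi3bp, which encodes a matrix protein, was covered over 10.7% in MEF and 13.3% in MEF B12, against 2.36% in OSKM and 5.58% in OSKM B12. Adamts6, a gene for a secreted metalloprotease, had 10.4%, 12.5%, 1.17% and 5.10%. For these matrix genes, OSKM B12 stayed below both libraries without doxycycline.

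Without doxycycline the libraries with and without the vitamin lay closer together. The covered share in MEF B12 was 1.11-fold that in MEF (1.07 to 1.16), higher in 139 of 153 genes, and the number of peaks 1.03-fold (0.990 to 1.07). The covered share was higher in 510 of 578 marked genes of 100 to 200 kb. The pileup over shared bases was 0.696 against 0.622, 1.12-fold (1.11 to 1.13), and 0.998-fold when it was not divided by tags. A share higher by 1.5-fold or more was found in 1 gene (0.654%), against 6.93% of all marked genes, and 0 were lower by as much, against 1.98%. In marked genes of 100 to 200 kb, 12 of 578 (2.08%) were higher and 0 lower by as much, so these low counts are not particular to the long genes. With lists cut to the OSKM covered length, the covered-share ratio was 0.924. Whether the difference with the vitamin was itself different in MEF and in OSKM was not tested.

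By group, all marked members of each list were lower in OSKM than in MEF and higher in OSKM B12 than in OSKM, as were nearly all marked long genes. The median covered share of the 13 fibroblast genes was 31.5% in MEF and 37.2% in MEF B12, against 12.6% in OSKM and 34.3% in OSKM B12. The highest were Fbn2, Fbn1, Fndc3b and Antxr1. Fbn1, which encodes fibrillin 1, had 64.4% in MEF and 65.2% in MEF B12, against 50.2% in OSKM and 74.2% in OSKM B12. Fndc3b, a gene for a membrane protein with fibronectin type III domains, had 51.8%, 54.7%, 31.3% and 55.1%.

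For the 15 cytoskeletal genes the medians were 21.1%, 24.1%, 8.40% and 23.4%. Macf1 was covered over 37.5% in MEF and 38.3% in MEF B12, against 26.0% in OSKM and 37.4% in OSKM B12, with 25 peaks in MEF and 50 in OSKM. Dock1, an exchange factor gene for RAC1 with a body of 503 kb, had 36.1%, 40.1%, 19.4% and 39.0%.

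For the 21 genes of transcription, RNA and chromatin the medians were 15.3%, 16.2%, 6.47% and 16.4%. Chd9, a chromodomain helicase gene, had 37.9% in MEF and 39.7% in MEF B12, against 26.4% in OSKM and 40.4% in OSKM B12. Kmt2c, which encodes an H3K4 methyltransferase, had 27.3%, 33.9%, 10.1% and 28.1%. Runx1 had 28.2%, 32.8%, 14.2% and 28.6%, and Med13l, a gene for a Mediator subunit, 25.1%, 28.4%, 20.2% and 29.1%. In all 4 genes OSKM was the lowest library, and in Kmt2c it was the smallest share of the MEF value.

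Among the guidance genes, Slit2 had 23.2% in MEF and 27.3% in MEF B12, against 7.26% in OSKM and 22.5% in OSKM B12. Slit3, with a body of 587.3 kb, had 21.5%, 22.0%, 10.2% and 24.1%, and Tenm3 11.2%, 13.1%, 3.33% and 12.9%. Foxp1, at 591.8 kb the longest marked gene with no overlap by another coding gene in its peaks, had 9.54%, 10.4%, 4.71% and 10.7%. Utrn, a gene for the dystrophin relative utrophin, had 19.9%, 23.6%, 8.07% and 21.2%. Dennd1a, an exchange factor gene for RAB35, had 6.998%, 10.3%, 2.92% and 9.75%.

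Among the genes that were touched but not marked, OSKM was again the lowest library. Over these 443 genes there were 3040 peaks in MEF and 3510 in MEF B12, against 1459 in OSKM and 3502 in OSKM B12. The mean covered share was 1.56% in MEF and 1.89% in MEF B12, against 0.563% in OSKM and 1.85% in OSKM B12. In 45 of them the only peaks of any library were in OSKM, against 21 with peaks in MEF alone, 17 in MEF B12 alone and 22 in OSKM B12 alone. No such counts over all genes are given, so these are not read as a feature of the long genes.

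The third question was how far toward the 5′ end the mark reached. The median 5′ front of the 153 marked genes lay 14.6 kb from the TSS in MEF and 11.5 kb in MEF B12, against 30.2 kb in OSKM and 10.2 kb in OSKM B12. As a share of the body this was 5.64%, 4.09%, 11.7% and 3.82%. The front lay within 5 kb of the TSS in 35 genes in MEF and 38 in MEF B12, against 19 in OSKM and 41 in OSKM B12, and in the last 50% of the body in 13, 7, 24 and 8. In OSKM the front was nearer the transcription end site (TES) than in MEF in 111 genes (72.5%, 64.99% to 79.0%), against 75.6% of all marked genes. In OSKM B12 it was nearer the TES than in OSKM in 21 genes (13.7%, 9.16% to 20.1%), against 15.6%. In MEF B12 it was nearer the TES than in MEF in 60 genes (39.2%, 31.8% to 47.1%), against 41.2%. These shares were close to those over all marked genes and are no feature of the long ones. With each list cut to the covered length of the OSKM list they turned, to 7.14%, 87.2% and 57.4%.

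In bases, the front moved farther in long genes than in shorter ones. The median shift from MEF to OSKM was 3.21 kb toward the TES in the long genes, against 1.68 kb in those of 100 to 200 kb and 0.693 kb in those of 20 to 50 kb. As a share of the body these shifts were 1.32, 1.23 and 2.13 percentage points. The front moved by more than 20 kb toward the TES in 42 long genes and toward the TSS in 14. From OSKM to OSKM B12 the median shift was −7.85 kb, toward the TSS, with 54 genes moving more than 20 kb in that direction and 7 in the other. A short body cannot hold a shift of more than 20 kb, and no share over all marked genes is given for these counts. They are therefore not read as a feature of the long genes. The first peak of a gene may be a small one. Taken from the first peak of 2 kb or more, the front lay at a median of 41.5% of the body in MEF and 36.4% in MEF B12, against 76.7% in OSKM and 39.8% in OSKM B12, with such a peak in 149, 150, 105 and 151 genes. By this measure it was nearer the TES in OSKM than in MEF in 98 of 105 genes. The measure depends on peak length, whose 90th percentile was 2353 bases in OSKM and 3532 in MEF. Its medians rest on different sets of genes. No share over all marked genes is given for it, so it is not read as a feature of the long ones.

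**Figure D3:**
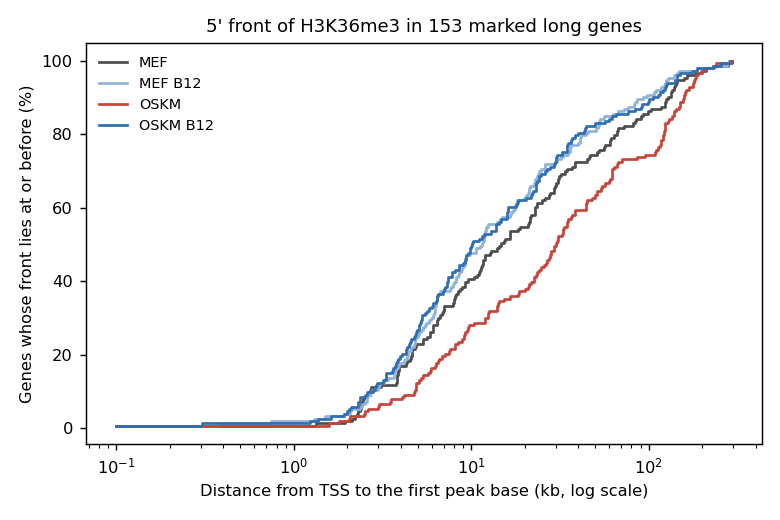
Cumulative percent of the 153 marked long genes whose 5′ front lies at or before a distance from the TSS (kb, log scale, values under 0.1 kb drawn at 0.1), 1 line per library. The OSKM line lies to the right of the other 3, with a median of 30.2 kb against 10.2 to 14.6 kb.

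Inside the gene, the front lay mostly in the first introns. It fell in intron 1 in 66 genes in MEF and 76 in MEF B12, against 51 in OSKM and 73 in OSKM B12, and in intron 2 in 50, 44, 43 and 44. It lay in a later intron in 27, 16, 49 and 21. Intron 1 held no peak in 86 genes in MEF and 75 in MEF B12, against 101 in OSKM and 78 in OSKM B12. An annotated start 1 kb or more inside the body was present in 107 of the 153 genes. The front lay past such a start in 41 of them in MEF and 38 in MEF B12, against 54 in OSKM and 35 in OSKM B12.

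Single genes showed fronts of several kinds. In Phf21a, which encodes a reader of unmethylated H3K4, intron 1 held the front in all libraries, at 117.4 kb in MEF and 117.4 kb in MEF B12, against 122.0 kb in OSKM and 99.6 kb in OSKM B12. The nearest annotated start before it lay at 93.4 kb. In Tnrc6b, a gene for an Argonaute partner, the fronts were spread, at 129.0, 109.4, 147.9 and 44.1 kb, in introns 2 to 5. GENCODE had no inner start before them, but RefSeq had a start at 87.3 kb, ahead of the front in all libraries except OSKM B12. Syne1, which encodes nesprin 1 in 146 exons, had its front at 279.9 kb in MEF and 282.6 kb in MEF B12, against 292.0 kb in OSKM and 285.6 kb in OSKM B12, in introns 58 to 63. Its inner starts lay farther on, the first at 356.0 kb. Fbn1 had its front within 5 kb of the TSS in all libraries, at 4.61 kb in MEF and 4.89 kb in OSKM, although its covered share differed. Adam12, a metalloprotease gene, had it at 1.95 kb in MEF and 3.08 kb in MEF B12, against 10.4 kb in OSKM and 2.52 kb in OSKM B12.

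The mark was not spread evenly along the bodies. In MEF, 5.13% of the bases within 5 kb of the TSS lay in peaks, 12.5% of those at 5 to 10 kb, 11.7% at 50 to 100 kb and 23.7% at 150 to 200 kb. Counted from the TES, the share was 58.0% within 5 kb, 38.7% at 20 to 50 kb, 23.2% at 50 to 100 kb and 12.3% at 150 to 200 kb. Marked genes of 100 to 200 kb had 63.1%, 40.1% and 21.9% in the first 3 of these bands from the TES. Within 5 kb of the TSS, those of 100 to 200 kb had 4.59%, close to the long genes, and those of 20 to 50 kb had 15.2%. At 20 to 100 kb from the TES the long genes were thus close to the genes of 100 to 200 kb, and they were lower within 5 kb of it.

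The ratio of OSKM to MEF also differed along the body. It was 0.623 within 5 kb of the TES, 0.551 at 20 to 50 kb, 0.476 at 50 to 100 kb and 0.425 at 150 to 200 kb. With the body cut into 20 equal bins, the lowest ratio was 0.346, in bin 8 from the TSS, and the highest 0.636, in bin 20. For OSKM B12 against OSKM the ratio was 1.69 within 5 kb of the TES and 2.74 at 150 to 200 kb from it. Both ratios were nearer 1 within 50 kb of the TES than beyond it.

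**Figure D4:**
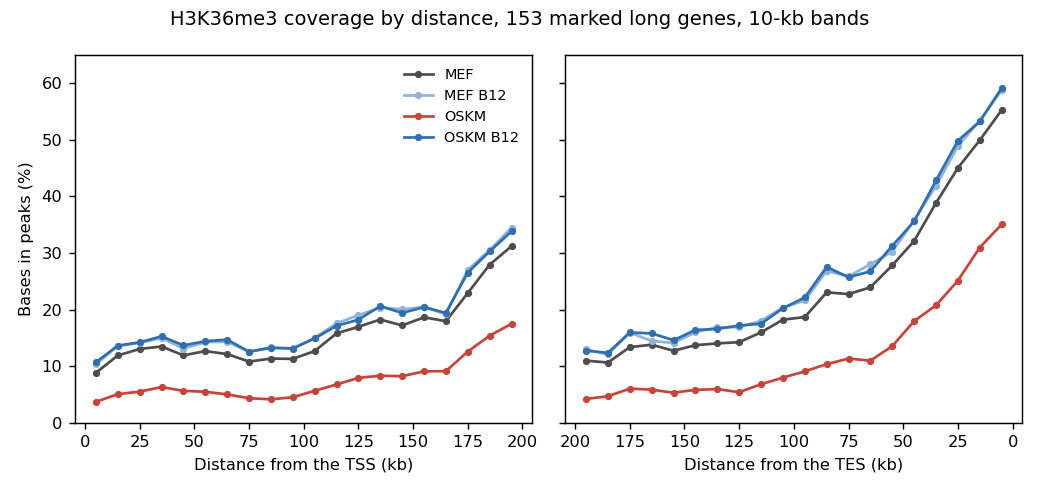
Percent of bases in peaks over the 153 marked long genes in 10-kb bands, by distance in kb from the TSS (left) and from the TES (right, the TES at the right edge), 1 line per library. In MEF the share was 8.82% in the first 10 kb and 55.2% in the last 10 kb, and in OSKM 3.70% and 35.04%.

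Exons were the most covered parts. With the bases of other protein-coding genes left out, 64.9% of exon bases lay in peaks in MEF and 68.9% in MEF B12, against 42.7% in OSKM and 67.2% in OSKM B12. Intron bases within 1 kb of an exon were covered over 51.6% in MEF, those 1 to 5 kb away over 24.1%, those 5 to 20 kb away over 7.87% and those over 20 kb away over 2.57%. The ratio of OSKM to MEF was 0.658 in exons, 0.559 within 1 kb, 0.429 at 1 to 5 kb, 0.356 at 5 to 20 kb and 0.451 beyond 20 kb. Intron 1 was covered over 2.51% in MEF, and the later introns over 20.9%. With the bases of other genes kept, intron 1 had 7.98% and the bases over 20 kb from an exon 7.99%.

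The place along the body and the distance to an exon each went with coverage. In MEF, exon bases were covered over 42.1% in the first 50% of the body and 70.7% in the second. For intron bases 1 to 5 kb from an exon the shares were 17.9% and 28.2%, and for those over 20 kb away 1.98% and 3.88%. The ratio of OSKM to MEF in exons was 0.545 in the first part and 0.675 in the second. Bases of the same distance to an exon were therefore covered less in the 5′ than in the 3′ part.

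The comparison was also made by length and by covered share. Over all marked genes, the covered share in OSKM relative to MEF was 0.729 in genes under 20 kb, 0.672 at 20 to 50 kb, 0.585 at 50 to 100 kb, 0.528 at 100 to 200 kb and 0.505 at 200 kb or more. The number of peaks in OSKM relative to MEF was 1.17, 1.23, 1.00, 0.874 and 0.758 in the same order. Hence the peaks in OSKM were more numerous than in MEF in short genes and fewer in long ones. Genes were then grouped by covered share. Grouping by the mean over the 4 libraries, as plotted, uses the OSKM and MEF shares themselves, so that a low ratio also moves a gene to a lower group. Therefore the covered share in MEF B12 alone, which is on neither side of the ratio, was used as well. In the 55 long genes under 15% in MEF B12, the number of peaks in OSKM was 0.592 of that in MEF (0.547 to 0.642), against 0.601 (0.552 to 0.656) in genes of 100 to 200 kb and 0.515 (0.453 to 0.586) in those of 20 to 50 kb. In the 10 long genes at 50% or more it was 1.29 (1.14 to 1.46), against 1.32 (1.25 to 1.39) and 1.55 (1.51 to 1.59). The covered-share ratio of the long genes was 0.408 under 15%, 0.477 at 15 to 30%, 0.520 at 30 to 50% and 0.636 (0.562 to 0.720) at 50% or more. At 50% or more it was 0.604 (0.575 to 0.636) at 100 to 200 kb, 0.712 (0.693 to 0.731) at 20 to 50 kb and 0.767 (0.741 to 0.795) in genes under 20 kb. The long genes thus lay near those of 100 to 200 kb in these groups. At 50% or more, their interval for the number of peaks did not meet that of genes of 20 to 50 kb, and their interval for the covered share did not meet that of genes under 20 kb. However, these intervals treat peaks as independent counts and hold no spread between genes or libraries. Covered share was also not matched in this group. Its mean in MEF was 59.25% in the long genes and 60.98% at 100 to 200 kb, against 69.19% at 20 to 50 kb and 67.21% under 20 kb. Whether length itself had a part was not tested.

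**Figure D5:**
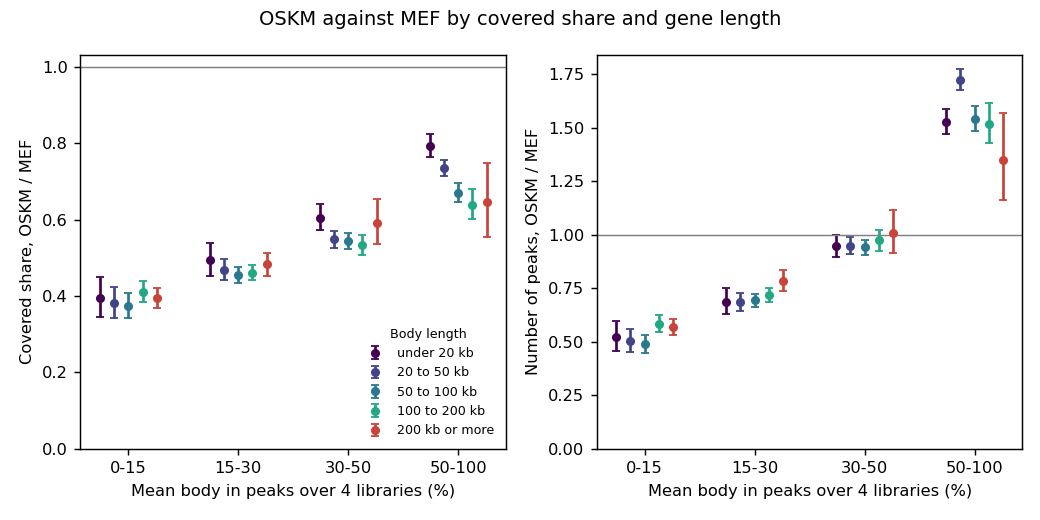
OSKM relative to MEF for the mean covered share (left) and the number of peaks (right) of marked genes, by the mean percent of the body in peaks over the 4 libraries (x axis) and by length (colours). Points are ratios and bars 95% counting intervals; in this grouping, which uses the compared libraries themselves, the long genes (red) go from 0.394 to 0.646 on the left and from 0.568 to 1.35 on the right.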

How the data were processed

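H3K36me3 ChIP–seq was analysed in 4 libraries (MEF, MEF B12, OSKM and OSKM B12), grouped by their labels. Reads had been aligned to mm10 by the authors, with bowtie (0.12.9 in the submitters' processing notes). Runs were merged, duplicates removed and broad peaks called by the authors in each library against its input with MACS2 2.2.6, at q-value cut-offs of 0.05 and 0.1 and a genome size of 3209286105. Pileup in the deposited lists is a signal: extended fragments per base, averaged over the peak. Pileup over shared bases used these peak averages, not values at single bases. Both p-values and q-values were deposited as −log10, and fold enrichment in the deposited files is the ratio of pileup to input. No read coverage outside peaks was used. Genes were taken from GENCODE M21, and bases from GRCm38.p6, whose chromosomes held every peak listed on chromosomes 1 to 19, X and Y. The lists also held between 1 (OSKM) and 16 (MEF) peaks on scaffolds, which were not used.

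From these, peaks per gene, covered share, 5′ front and pileup per 1000000 tags were computed with Python 3.11, numpy 2.4.6, scipy 1.17.1 and pysam 0.24.0. A peak touched a gene at 1 shared base or more. Shares carry 95% Wilson intervals, and ratios carry Poisson intervals from the numbers of peaks or fragments. The arithmetic was checked on simulated data. Depth was 29046913 to 33399267 tags, which limits how weak a callable peak can be.

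The members, gene lists and measures were chosen with earlier results of these data known. Genes were named by role, by length, by the place of the front and by the size of the difference in covered share. One gene that this rule names is not reported here. The design called for sequences at the front of the most 5′ and the longest marked gene. Atp5o and Gm20388, to which this led, had most of their peak bases in other genes, and Macf1 and Mycbp2 were shown instead, a choice made after the values were seen. The Rgl1 and Runx1 promoters, the groups by covered share, the sets of genes marked in OSKM or with any peak, and the values by distance to an exon were also added then. Alternatives were stricter peaks, equal covered length, merged peaks, bases of other genes left out, other minimum lengths and covered shares, other scalings and other definitions of the front.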

Additional observations from a re-analysis of the deposited data

Results flagged for a closer look

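Outside the length rule's chromosomes, 44 bodies of 200 kb or more lay on chromosomes X and Y, and 22 of them had a peak. One was marked, Cask, a gene for a membrane-associated guanylate kinase on chromosome X, which stood out as a signal in data that no comparison used. It was covered over 11.7% in MEF and 13.5% in MEF B12, against 1.92% in OSKM and 12.3% in OSKM B12, with OSKM the lowest. Outlying libraries within a condition were not looked for, since each condition had 1 library.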

How the results depend on the processing

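No paired analysis was possible because the comparisons had 1 H3K36me3 library a side and came from no test. The direction held in 38 of 42 alternative values for OSKM against MEF, 39 of 42 for OSKM B12 against OSKM and 36 of 42 for MEF B12 against MEF. The following gives, for each setting, the values outside the 95% interval of the reported one, in the order OSKM against MEF, OSKM B12 against OSKM, MEF B12 against MEF where all 3 are given.

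With equal covered length the direction turned in the covered share (1.12, 0.872 and 0.924), in the share of genes with the front nearer the TES (7.14%, 87.2% and 57.4%) and in the number of peaks of the first 2 comparisons (5.40 and 0.147), with 0.714 in the third. This setting keeps the OSKM list whole and takes the weakest peaks from the other lists. The pileup ratio under it was 0.746, 1.61 and 1.13. With peaks of −log10 q of 5 or more, the covered share was 0.0868, 16.2 and 1.29, the number of peaks 0.142, 10.5 and 1.25, the pileup 0.758, 1.68 and 1.14, and the front share 93.5%, 0% and 30.9%. OSKM then kept 67 peaks on marked long genes and MEF 472. Merging of peaks at most 1 kb apart gave a covered share of 0.527 and 2.12 and a number of peaks of 0.802 and 1.34 in the first 2 comparisons. A minimum length of 300 kb gave a covered share of 0.473 and 2.36 in these, and a pileup of 1.56 and 1.13 in the last 2. With genes marked at 25%, the covered share was 0.554 and 2.01, the number of peaks 0.933 and 1.14, the pileup for OSKM against MEF 0.767 and the front share 80.0%. Pileup not divided by tags gave 0.795, 1.35 and 0.998, the last on the other side of 1, and fold enrichment over input 0.803, 1.39 and 1.09. The front by 5% of covered bases gave 30.1% and 49.7% in the last 2 comparisons, and by the first peak of 2 kb or more 93.3%, 3.81% and 29.5%. For OSKM B12 against OSKM, the pileup ratio was 1.496 with bases in other genes left out. Leaving out the 6 gene models that lie mostly over other genes, added after the data were seen, gave 1.49, and 1.11 in MEF B12 against MEF. Also added then, the 55 genes marked in OSKM itself gave a covered share of 0.594 and 1.86, a number of peaks of 1.02 (the other side of 1), 1.03 and 0.971, a pileup of 0.765 and 1.56, and a front share of 47.3% in MEF B12 against MEF. All 596 genes with a peak gave a covered share of 0.479 and 2.36, a number of peaks of 0.660, 1.66 and 1.07, and a pileup of 0.780 and 1.51.

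The causes of these differences were not tested beyond what the settings themselves fix. A single library per condition, near-threshold peaks in long introns and gene models that span other genes limit all values. A missing peak is no proof of a missing mark at this depth.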
